A study of Rattus norvegicus with 6 samples.

Results

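Stretch and calcineurin responsive muscle genes were examined as a set of 10 among the 33509 genes of the deposited table: Abra, Srf, Fhl2, Ankrd1, Ankrd2, Rcan1, Xirp1, Xirp2, Smpx and Fhl1. They were matched by gene symbol. Abra, Ankrd1 and Rcan1 were selected on their deposited counts, which stood far higher in the treated group, and the others because they belong to the same stress programs of striated muscle. Values of the comparison are therefore given for these genes as a description, without a test. Myocardial RNA of Sprague-Dawley rats was sequenced in 6 libraries. In the MOD group (3 libraries) the rats modelled acute myocardial infarction, and the XHT group (3 libraries) had the same model and received XHT, which the series title names as Xinhuitong. All 6 libraries thus come from the infarction model, and no uninfarcted heart is among them. The dose, the time after infarction, the age of the rats, the part of the heart sampled and whether each library is a separate animal are not given in the labels, so the spread between libraries may be partly technical.

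Heart muscle cells read mechanical load and calcium through a few linked systems. Actin polymerisation, promoted by the actin-binding protein Abra, frees myocardin-related cofactors that act with the transcription factor Srf on promoters holding a CArG box. Calcium activates the phosphatase calcineurin, which moves NFAT factors into the nucleus, and Rcan1 binds calcineurin and inhibits it. The ankyrin repeat proteins Ankrd1 and Ankrd2 bind the spring region of titin and can enter the nucleus, Fhl1 and Fhl2 are LIM-domain proteins of the sarcomere, Xirp1 and Xirp2 carry Xin repeats that bind actin, and Smpx is a small protein of striated muscle.

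Promoter sequences were read from RefSeq on build GRCr8 for 8 of the 10 genes, with 12 annotated starts among them, from 250 bases before to 50 bases after each start. Abra and Ankrd1 had no entry. A CArG box, the binding site of Srf, was matched in Srf, Fhl1 and Fhl2, and a MEF2 site, bound by the MEF2 factors that calcineurin signalling also acts on, in Xirp1, Xirp2, Smpx and Fhl2. Of all 33469 promoters in the table, 1.64% held a CArG box and 3.29% a MEF2 site on either strand. The stretches from 130 to 11 bases before the start are shown for these genes, because they hold every CArG and MEF2 match, with the matches in capitals. They lie at chr9:21923946-21924065 (plus strand) for Srf, at chr9:52954551-52954670 (minus strand) and chr9:52923337-52923456 (minus strand) for the 2 starts of Fhl2, at chrX:139638366-139638485 (plus strand) for Fhl1, at chr8:128635022-128635141 (minus strand) for Xirp1, at chr3:72534056-72534175 (plus strand) for Xirp2 and at chrX:41107148-41107267 (minus strand) for Smpx.
Srf: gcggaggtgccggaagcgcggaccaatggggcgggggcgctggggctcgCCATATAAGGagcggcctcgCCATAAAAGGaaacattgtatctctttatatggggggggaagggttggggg
Fhl2 start 1: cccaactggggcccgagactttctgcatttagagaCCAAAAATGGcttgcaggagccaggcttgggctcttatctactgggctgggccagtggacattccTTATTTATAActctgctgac
Fhl2 start 2: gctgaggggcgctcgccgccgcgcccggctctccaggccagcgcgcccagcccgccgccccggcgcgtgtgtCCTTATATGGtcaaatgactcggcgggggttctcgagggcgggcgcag
Fhl1 start 1: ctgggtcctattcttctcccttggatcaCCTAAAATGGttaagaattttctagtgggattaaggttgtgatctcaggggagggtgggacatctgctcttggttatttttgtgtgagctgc
Xirp1 start 1: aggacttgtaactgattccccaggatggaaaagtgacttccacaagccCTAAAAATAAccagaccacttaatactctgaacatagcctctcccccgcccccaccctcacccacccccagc
Xirp2: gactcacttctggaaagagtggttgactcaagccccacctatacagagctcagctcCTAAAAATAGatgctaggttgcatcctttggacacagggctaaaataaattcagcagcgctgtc
Smpx: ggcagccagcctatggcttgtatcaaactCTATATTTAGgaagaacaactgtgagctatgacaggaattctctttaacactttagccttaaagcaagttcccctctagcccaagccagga

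Srf, whose product regulates its own promoter, held 2 CArG boxes, at positions -81 to -72 and -61 to -52. Each of the 2 starts of Fhl2 had 1 CArG box, and the upstream start also had a MEF2 site at -30 to -21, directly after a GGAATG match, the core bound by TEAD factors. The MEF2 matches of Xirp1, Xirp2 and Smpx began at -82, -74 and -101. Starts 1 and 2 of Xirp1 are 8 bases apart and share their match. The third start of Xirp1 held none of the motifs. These matches are descriptions of letters and not evidence of binding, and no binding was measured here.

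The single Rcan1 start in the table lay inside the gene. It had 69829 bases of the annotated RefSeq gene upstream of it and 10114 bases from there to the far end. In the deposited table the Rcan1 gene model spanned 10857 bases, against 79943 in RefSeq, so the counts bear on a short model. Rcan1 is known to have an internal start that NFAT drives, which gives the short isoform through which calcineurin limits itself. The counts do not separate isoforms. The stretch from 250 to 131 bases before this start, at chr11:45118367-45118486 (minus strand), is shown because it holds both matches of GGAAA, the NFAT core (TTTCC is the same core on the other strand). That core was found in 62.7% of all promoters.
Rcan1: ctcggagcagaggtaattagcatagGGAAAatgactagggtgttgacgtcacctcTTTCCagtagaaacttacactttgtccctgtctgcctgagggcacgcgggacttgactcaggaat

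**Figure D1:**
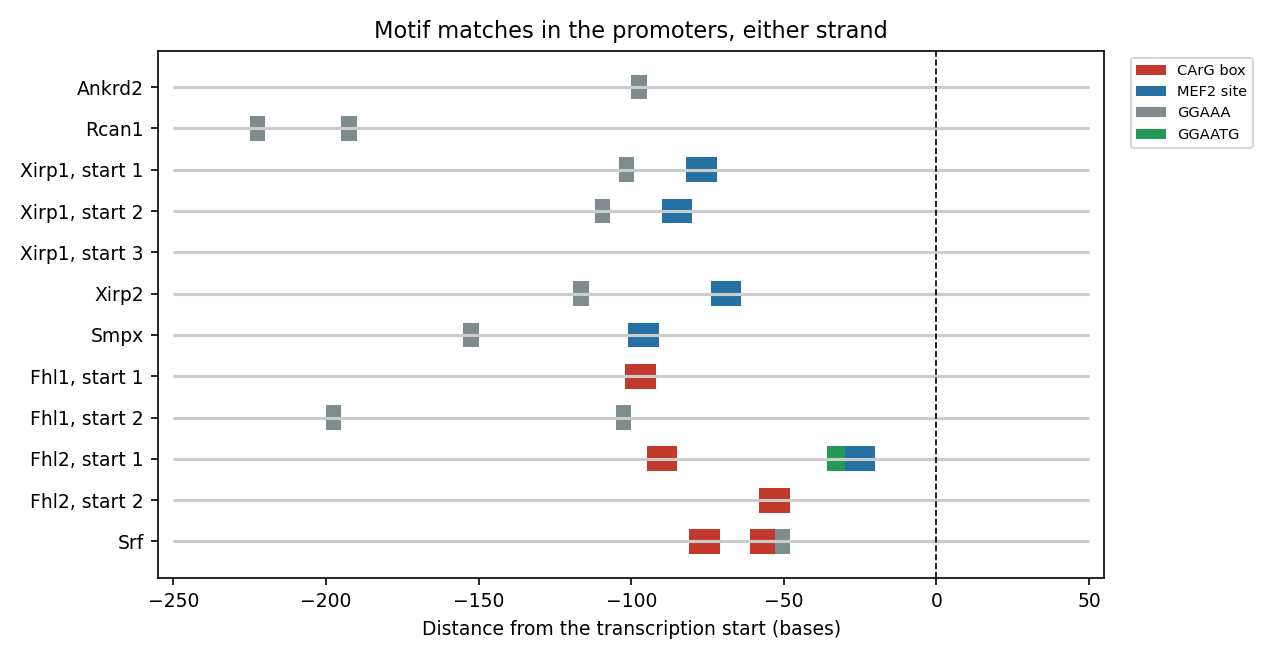
Positions of motif matches on either strand (coloured blocks) in the promoters of 8 genes, 12 starts in all, with the distance from the transcription start in bases on the horizontal axis. CArG boxes are seen in Srf, Fhl1 and Fhl2, and MEF2 sites between -101 and -21 in Xirp1, Xirp2, Smpx and Fhl2.

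The libraries held between 16550007 and 17724689 counts, and 14488 genes had enough counts to be tested. The amount of muscle RNA differed between libraries. The mean log2 CPM (counts scaled to library size after TMM normalisation) of 14 tested cardiomyocyte markers was 7.05, 6.85 and 10.3 in the MOD libraries (1, 2 and 3, in this order throughout). In the XHT libraries it was 11.7, 11.0 and 11.5. All 14 were detected, and their summed level lay between 2678 and 28686 CPM in MOD and between 41912 and 63552 CPM in XHT. The summed level of 12 fibroblast markers ran the other way, from 24018.5 to 64387 CPM in MOD and from 2091 to 5164 CPM in XHT. Of the marker genes tested, 1 of 14 for cardiomyocytes passed an adjusted p of 0.05 as higher in XHT, and 10 of 12 for fibroblasts, 9 of 12 for macrophages and 1 of 9 for endothelium passed as lower. The macrophage marker Cd163 went the other way and passed as higher, from 27.9 ± 7.23 to 56.1 ± 9.01 CPM (SD, n = 3 each). In bulk tissue, fewer cells of a type and less RNA per cell cannot be told apart. The part of this difference in the values that follow was not tested, but each gene is also given relative to the cardiomyocyte markers of its own library.

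All 10 genes passed the filter on low counts, Ankrd2 only through the XHT libraries. Every one had a positive log2 fold change in XHT against MOD, from 0.32 for Srf to 6.25 for Abra. The median was 2.36, where that of all tested genes was -0.02. The 14 tested cardiomyocyte markers had a median of 2.28, so a shift of this size was not particular to the set. In edgeR's quasi-likelihood fit over all genes, 7 of the 10 (all but Smpx, Fhl2 and Srf) passed an adjusted p of 0.05 as higher and 0 as lower (also 0 with DESeq2 or at an unadjusted p of 0.05), where 12.4% of all tested genes passed as higher, 16.1% as lower and 28.5% in either direction. Because the same contrast chose the genes, nothing is read from that count. It also moved when a library was left out. The count was 0 without MOD 1 or XHT 1, and 1 (Rcan1) without MOD 2 or XHT 3. It was 8 without MOD 3 and 6 without XHT 2. Calls over all tested genes moved too, so this is not particular to the set. From 1792 as higher they went to 128, 227 and 3487 without MOD 1, 2 and 3. Without XHT 1, 2 and 3 they went to 4, 1472 and 148. As lower, 2336 went to 375, 570, 3421, 4, 2135 and 288 in the same order. The lists below were counted in these same fits. For 9 of the 10 genes of the set, every XHT library stood above every MOD library. This held for 24.7% of all tested genes, and Srf was the exception.

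**Figure D2:**
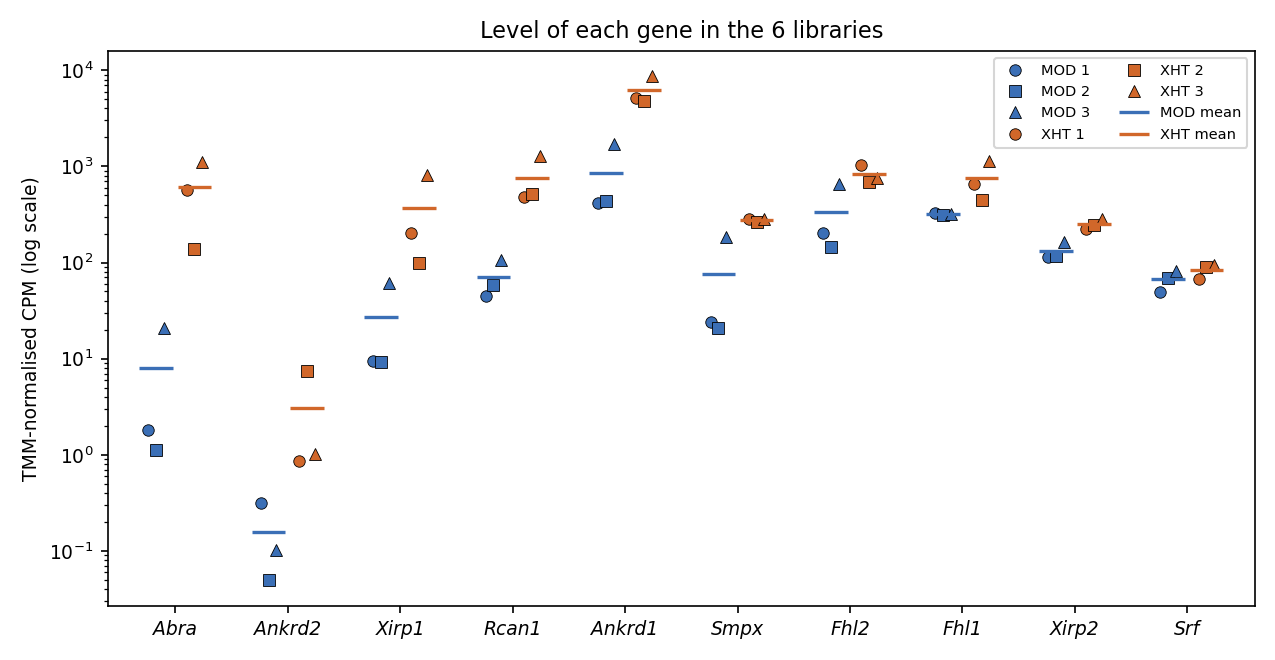
TMM-normalised CPM of the 10 genes on a log scale, with 1 point per library (blue MOD, orange XHT; circles, squares and triangles for libraries 1, 2 and 3) and the group means as lines. Abra spans from 1.14 CPM in MOD 2 up to 1112 CPM in XHT 3, whereas Srf stays between 49.4 and 93.8 CPM.

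Among the genes around Srf, Abra differed most. Its level was 1.79, 1.14 and 20.9 CPM in the MOD libraries, against 562.6, 137.8 and 1112 CPM in the XHT libraries. The lowest XHT value was 6.58 times the highest MOD value, so the groups were far apart, yet each group was wide: MOD 3 stood 11.7 times above the higher of the other MOD libraries, and the XHT libraries differed by 8.07 times. The log2 fold change was 6.25 ± 1.42 (SE), and it stayed between 5.47 and 8.70 in all 13 alternative fits. In the authors' deposited table the log2 fold change of Abra was 6.29.

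Srf itself moved little. It stood at 49.4, 68.4 and 82.2 CPM in MOD and at 66.6, 88.8 and 93.8 CPM in XHT, so the groups overlapped. Its log2 fold change was 0.32 ± 0.24 (SE) and turned to -0.079 when libraries were scaled to their total counts alone. Fhl2, a LIM protein that binds Srf and can repress it, stood at 203.4, 146.5 and 656.6 CPM in MOD and at 1028, 688.4 and 757.5 CPM in XHT. MOD 3 came within 1.05 times of the lowest XHT library, so the separation of Fhl2 was slight, with a log2 fold change of 1.30 ± 0.57 (SE).

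Of the titin-binding ankyrin repeat proteins, Ankrd1 had the highest level per length of the set in either group. It stood at 414.9, 436.6 and 1715 CPM in MOD and at 5180, 4739 and 8712 CPM in XHT (log2 fold change 2.86 ± 0.72 SE). The groups did not overlap, and the lowest XHT library was 2.76 times the highest MOD library. Ankrd2, known mainly from slow skeletal muscle, was nearly absent: it had 6, 1 and 2 counts in MOD and 13, 118 and 15 in XHT. XHT 2 thus held 118 of the 146 XHT counts, and without XHT 2 the log2 fold change of Ankrd2 went from 4.27 to 2.57. Of the 12 skeletal muscle markers, 10 were in the table, and their summed level was 24.9, 21.1 and 9.72 CPM in the MOD libraries and 5.05, 10.2 and 6.74 CPM in the XHT libraries. Of this sum, Tnnt3 alone gave 19.7, 15.8 and 3.70 CPM in the MOD libraries and 1.13, 3.83 and 1.91 CPM in the XHT libraries. The sum was highest in MOD 1, but within XHT it was highest in XHT 2. So were Myh1 (0, 18 and 4 counts in the XHT libraries), Mybpc1 (0, 16 and 7) and Myog (0, 5 and 1). Tnnt3 (17, 61 and 28), Tnni2 (2, 3 and 0) and Pvalb (2, 4 and 0) were also highest there. By contrast, Mybpc2 (40, 38 and 28) was highest in XHT 1 and Actn3 (15, 16 and 29) in XHT 3. Atp2a1 had 0, 2 and 2 counts, and Myod1 had 0 in each XHT library. Atrial markers also differed within XHT, where Myl7, a myosin light chain of atrial muscle, had 3.19, 57.4 and 45.0 CPM in the XHT libraries and under 1 CPM in every MOD library. All 5 atrial markers were in the table, summing to between 399.6 and 864.6 CPM in MOD and between 620.3 and 2170 CPM in XHT, most of it Nppa, and Bmp10 had 0 counts in XHT 2 and XHT 3. The part of skeletal and atrial markers in the Ankrd2 value was not tested.

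Rcan1, the calcineurin inhibitor, stood at 45.2, 58.7 and 107.4 CPM in MOD and at 478.7, 513.4 and 1278 CPM in XHT. The lowest XHT library was 4.46 times the highest MOD library, and XHT 3 was 2.49 times the next XHT library. The log2 fold change was 3.43 ± 0.54 (SE), with a range of 2.83 to 3.88 over the alternative fits, the narrowest relative to its size among the 3.

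The pair of Xin-repeat genes behaved unlike each other. Xirp1, whose product lies at the intercalated disc, stood at 9.48, 9.34 and 61.9 CPM in MOD and at 202.7, 99.95 and 813.0 CPM in XHT (log2 fold change 3.79 ± 1.08 SE). XHT 3 alone was 4.01 times the next XHT library, and without it the log2 fold change was 2.50. Xirp2 was far steadier, at 112.8, 117.0 and 165.2 CPM in MOD and 223.0, 247.7 and 284.0 CPM in XHT (log2 fold change 0.93 ± 0.23 SE). Both promoters held a MEF2 match in nearly the same place.

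Smpx divided the libraries in another way. Its level was 24.1, 20.7 and 185.7 CPM in the MOD libraries. All XHT libraries lay close together, at 283.4, 266.8 and 286.5 CPM. MOD 3 therefore lay closer to the XHT libraries than to the other MOD libraries, and the log2 fold change of 1.86 ± 0.82 (SE) became 3.65 without MOD 3. Fhl1, which binds titin in mouse heart, showed the opposite layout. It was nearly constant in MOD, at 327.6, 315.5 and 317.3 CPM, and varied in XHT, at 663.3, 451.5 and 1140 CPM (log2 fold change 1.23 ± 0.37 SE).

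Per length, the order of the genes shifted between groups. On the scale of the authors' deposited FPKM (fragments scaled by gene length and library size), Ankrd1 led in MOD with 469.4 ± 406.3 and Fhl2 followed with 307.0 ± 254.5 (SD, n = 3). Their ranges across the MOD libraries overlapped. Within each MOD library Ankrd1 was nevertheless above Fhl2, at 227.2 against 185.8, 242.5 against 135.8 and 938.4 against 599.4 FPKM. Below came Fhl1, Smpx, Rcan1, Srf, Xirp2, Abra, Xirp1 and Ankrd2. Abra was at place 8 with 6.01 ± 8.48 FPKM (SD, n = 3). This place rested on MOD 3, where Abra was above Xirp1 (15.8 against 9.96 FPKM). It was below Xirp1 in MOD 1 (1.35 against 1.53) and MOD 2 (0.87 against 1.53). The MOD ranges of Fhl1, Smpx, Srf, Xirp2 and Abra each overlapped that of the next gene, so these ranks were not separated either. In XHT, Ankrd1 stood at 3504 ± 1260 FPKM and above Fhl2 (774.5 ± 167.5) in every library, and Abra was at place 3 with 471.0 ± 383.8 FPKM (SD, n = 3). Abra, Rcan1 (351.0 ± 212.7), Smpx (311.7 ± 13.9) and Fhl1 (283.4 ± 135.4) overlapped with their neighbours in that order (SD, n = 3), so their ranks were not separated by these libraries. Xirp1, Xirp2 and Srf followed, each overlapping the next, and Ankrd2 was last at 2.02 ± 2.43 FPKM (SD, n = 3).

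Set against the cardiomyocyte markers of the same library, a measure that does not depend on scaling between libraries, Abra stood apart from the other 9. Its log2 level minus the mean of the markers was -6.12, -6.53 and -5.95 in the MOD libraries, against -2.53, -3.88 and -1.34 in the XHT libraries. MOD 3, rich in muscle RNA, thus lay with the other MOD libraries, and all XHT libraries lay above them, a mean difference of 3.61. In this measure 23 of all tested genes, 0.159%, lay above in every XHT library, 4 of them cardiomyocyte markers themselves. The gap between groups was widest for Abra. Because Abra was selected on these same counts, its place is a description and no support is read from it. Abra also lay above in every XHT library with the median of the markers in place of the mean. Leaving out a library could not change this, because groups that are apart over all libraries stay apart over fewer.

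None of the other genes of the set lay above in every XHT library on this measure. Of all tested genes, 0.159% lay above, 83.6% lay below and the rest overlapped. Rcan1 stood at -1.54, -0.98 and -3.60 in MOD and at -2.76, -1.98 and -1.14 in XHT. Ankrd1 stood at 1.65, 1.92 and 0.40 in MOD and at 0.67, 1.23 and 1.63 in XHT. For both the groups overlapped, and the highest MOD values were in the muscle-poor libraries 1 and 2. Xirp1, Fhl1 and Ankrd2 overlapped too. For Xirp1 only XHT 3, at -1.80, lay above the MOD libraries, the others being at -4.00 and -4.34 against a MOD range of -4.39 to -3.61. Xirp2, Smpx, Fhl2 and Srf lay lower in every XHT library than in any MOD library, as did 83.6% of all tested genes. For Xirp2 and Smpx this ended when the median of the markers was used, which left 2 genes of the set lower.

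**Figure D3:**
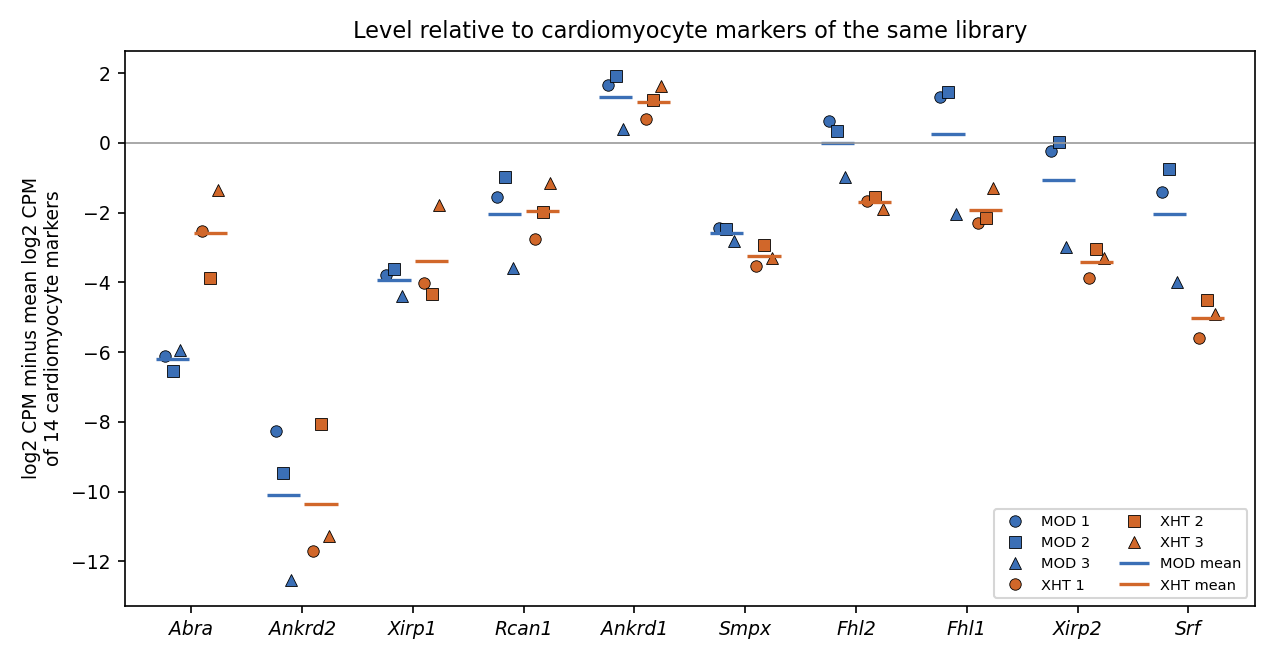
Log2 CPM of each gene minus the mean log2 CPM of 14 cardiomyocyte markers of the same library, with 1 point per library (blue MOD, orange XHT) and the group means as lines. Abra moves from between -6.53 and -5.95 in MOD to between -3.88 and -1.34 in XHT, whereas Rcan1 and Ankrd1 overlap.

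Within XHT, 8 of the 10 genes were highest in XHT 3, the exceptions being Ankrd2 (XHT 2) and Fhl2 (XHT 1). Within MOD, 8 of the 10 were highest in MOD 3, the exceptions being Ankrd2 and Fhl1 (MOD 1). The mean and the sum of the cardiomyocyte markers were likewise highest in MOD 3 within MOD. How many of all tested genes were highest in MOD 3 or XHT 3 was not counted, so nothing about the set is read from this. For Abra, Xirp1, Rcan1 and Ankrd1, XHT 3 was between 1.68 and 4.01 times the next XHT library, while for Smpx it was 1.01 times. The mean and the sum of the cardiomyocyte markers were, within XHT, highest in XHT 1. Single markers such as Tnnt2 (7599, 5796 and 8723 CPM in the XHT libraries) were nevertheless highest in XHT 3.

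The genes whose log2 CPM followed that of Abra, Ankrd1 and Rcan1 most closely over the 6 libraries were sought among 11849 candidates by the root mean square difference of centred log2 CPM. For Abra these were Klhl40, a stabiliser of muscle thin filaments (0.82), the cytochrome P450 Cyp2e1 (0.98) and the slow myosin Myh7 (1.22). Klhl40 stood at 0.37, 0.49 and 2.88 CPM in MOD and at 51.2, 15.8 and 140.5 CPM in XHT. Like Abra it was highest in MOD 3 within MOD, and in XHT 3 and then XHT 1 within XHT. The difference is not scaled to how widely a gene varies, so its size cannot be compared between Abra, Ankrd1 and Rcan1. For Ankrd1 they were Dusp27, a muscle phosphatase-like protein (0.11), Ptprb, a receptor phosphatase of endothelium (0.15), and Ppp1r3c, a glycogen-targeting subunit of protein phosphatase 1 (0.16). For Rcan1 they were Nppb, the natriuretic peptide BNP (0.33), Eya2, a transcriptional coactivator with phosphatase activity (0.34), and Penk, the enkephalin precursor (0.37). Nppb shared the high XHT 3 value of Rcan1, at 349.8, 434.2 and 1389 CPM in XHT and 34.9, 32.5 and 112.3 CPM in MOD. Likeness over 6 libraries that fall into 2 groups is a description.

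The calcineurin and NFAT pathway beyond Rcan1 was tested gene by gene in the same fit. Of 24 tested genes, 6 rose, 1 fell and 17 did not pass, with a median log2 fold change of 0.42. For comparison, 12.4% of all tested genes rose and 16.1% fell. Dyrk1a, a kinase that primes NFAT for export, rose from 26.1 ± 5.39 to 64.9 ± 19.7 CPM, and the factor Mef2d from 26.2 ± 7.75 to 69.0 ± 21.7 CPM (SD, n = 3 each). Ppp3cc, a catalytic subunit of calcineurin, rose from 24.7 ± 1.48 to 47.7 ± 11.4 CPM, and Nfatc2 rose by 1.93 ± 0.53 on the log2 scale (SE). Lmcd1, a LIM protein reported to promote calcineurin signalling in mouse heart, and the NFAT kinase Gsk3b, singled out after its values were seen, were the others that rose. Lower was only the cation channel Trpc6, which fell from 9.04 ± 2.31 to 2.10 ± 0.996 CPM (SD, n = 3 each). In the edgeR fit, Benjamini-Hochberg adjusted p-values ran from 0.0159 for Trpc6 to 0.0464 for Gsk3b.

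The main calcineurin subunits of heart did not pass the threshold (edgeR adjusted p = 0.899 for Ppp3ca, 0.232 for Ppp3cb and 0.124 for Ppp3r1). For Ppp3cb and Ppp3r1 every XHT library stood above every MOD library, as for 24.7% of all tested genes, and Ppp3ca overlapped. Ppp3ca and Ppp3cb, catalytic subunits, stood at 27.3 ± 8.58 and 40.3 ± 3.06 CPM in MOD and at 26.4 ± 5.60 and 47.8 ± 2.80 CPM in XHT, and the regulatory subunit Ppp3r1 at 88.1 ± 4.66 and 115.6 ± 15.5 CPM (SD, n = 3 each). Rcan2, a calcineurin-binding relative of Rcan1, stood at 45.6, 45.6 and 189.9 CPM in MOD and at 328.9, 244.2 and 331.3 CPM in XHT, and missed the threshold (adjusted p = 0.0644 in the edgeR fit). Nfatc4 stood at 43.3 ± 18.6 and 18.8 ± 6.11 CPM (SD, n = 3 each; edgeR adjusted p = 0.0503). Without MOD 1, MOD 2, XHT 1 or XHT 3, 0 genes of this list passed. Without MOD 3, 10 rose and 2 fell, and without XHT 2, 6 rose and 3 fell.

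Of 18 tested Srf cofactors and actin-signalling genes, 4 rose and 3 fell (all tested genes: 12.4% and 16.1%), with a median log2 fold change of 0.17. Among those higher in XHT were Cfl2, the muscle cofilin (log2 fold change 1.57 ± 0.32 SE), Ablim1, an actin-binding LIM protein (1.55 ± 0.38 SE), and Myocd, the cardiac and smooth muscle cofactor of Srf, from 4.06 ± 2.50 to 15.1 ± 5.82 CPM (SD, n = 3 each). Lower were Mkl1, the actin-sensing cofactor of Srf, from 20.3 ± 1.54 to 12.6 ± 0.28 CPM (SD, n = 3 each), the ternary complex factor Elk3 (-1.07 ± 0.23 SE) and Mamstr, a MEF2 and Srf coactivator (-2.19 ± 0.55 SE). The adjusted p-values of these 6 genes in the edgeR fit ran from 0.0180 for Cfl2 to 0.0325 for Myocd. Without MOD 1, MOD 2, XHT 1 or XHT 3, 0 passed, and 6 rose and 4 fell without MOD 3.

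Textbook targets of Srf outside the set were mixed. Of 19 tested, 0 rose (1 with DESeq2, and 1 at an unadjusted p of 0.05) and 4 fell: Actb from 1949 ± 496.0 to 538.1 ± 166.9 CPM, Myl9 from 292.3 ± 72.9 to 113.2 ± 16.6 CPM, Tagln from 466.5 ± 185.8 to 166.1 ± 54.8 CPM and Acta2 from 447.5 ± 140.7 to 185.7 ± 49.1 CPM (SD, n = 3 each). These encode actins and proteins of the contractile apparatus in non-muscle and smooth muscle cells, with adjusted p-values between 0.0156 and 0.0344 in the edgeR fit. Targets that encode striated muscle proteins had positive log2 fold changes that did not pass: 1.90 ± 0.70 for the tropomyosin Tpm1, 1.80 ± 1.14 for the cardiac actin Actc1 and 1.47 ± 0.81 for the skeletal actin Acta1 (SE; edgeR adjusted p = 0.0781, 0.254 and 0.195). These 3 were chosen after their values were seen. The list median was -0.41, and of all tested genes 12.4% rose and 16.1% fell. Markers of smooth muscle and pericytes, 3 of which (Acta2, Tagln and Cnn1) are also on this list, summed to between 1657 and 2268 CPM in MOD and between 1085 and 1513 CPM in XHT, with 3 of 10 lower and none at 0. Their part in the fall was not tested. Without MOD 1, MOD 2, XHT 1 or XHT 3, 0 passed, and 3 rose and 8 fell without MOD 3.

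Of 19 tested Z-disc and titin partners, 9 rose and 1 fell (all tested genes: 12.4% and 16.1%), with a median log2 fold change of 1.85. The summed cardiomyocyte markers moved the same way, from 2678 to 28686 CPM in MOD and from 41912 to 63552 CPM in XHT, and their part in this count was not tested. Trim63, a muscle ubiquitin ligase that binds titin, rose from 22.4 ± 11.9 to 399.7 ± 242.8 CPM, and Mypn, which links Ankrd1 to the Z-disc and the titin spring, from 11.3 ± 9.19 to 135.6 ± 44.0 CPM (SD, n = 3 each). Flnc, the muscle filamin that binds Xirp1, rose from 101.3 ± 42.2 to 660.3 ± 295.8 CPM, and Bag3, a co-chaperone of filamin turnover, from 97.6 ± 23.7 to 352.2 ± 83.2 CPM (SD, n = 3 each). Vasp, an actin-assembly factor, fell (log2 fold change -0.87 ± 0.24 SE). Adjusted p-values of these 5 ran from 0.0112 for Bag3 to 0.0354 for Vasp in the edgeR fit. Ankrd23, the remaining ankyrin repeat relative of Ankrd1, stood at 24.8 ± 16.2 and 66.5 ± 16.7 CPM, and Csrp3, a Z-disc LIM protein, at 234.1 ± 263.8 and 1094 ± 208.9 CPM (SD, n = 3 each; edgeR adjusted p = 0.0509 and 0.0671). With MOD 1 or XHT 1 left out, 0 passed. With MOD 2 left out 3 rose and 0 fell, with XHT 3 left out 2 rose and 0 fell, and with MOD 3 left out 15 rose and 2 fell.

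In the Hippo pathway, which controls the YAP protein that also acts on Ankrd1, 3 of 20 tested genes rose and 4 fell. The median log2 fold change was -0.10. These counts were near the shares of all tested genes, 12.4% higher and 16.1% lower, so nothing about the list is read from them. Tead1 and Tead4, DNA-binding partners of YAP, rose from 4.28 ± 1.19 to 16.1 ± 4.95 CPM and from 27.0 ± 8.18 to 62.7 ± 23.1 CPM, and Amotl2, a binding partner of YAP, rose from 64.0 ± 9.81 to 123.4 ± 16.7 CPM (SD, n = 3 each). Tead2, the upstream kinases Stk3 and Stk4, and Ctgf, a YAP target of matrix cells, fell, Ctgf from 1350 ± 633.1 to 389.6 ± 155.6 CPM (SD, n = 3 each). Summed fibroblast markers were also lower in XHT (at most 5164 CPM, against at least 24018.5 CPM in MOD), and their part in the lower values was not tested. Adjusted p-values ran from 0.0132 for Tead1 to 0.0463 for Stk4 in the edgeR fit. Yap1 itself had 11.8, 17.1 and 31.2 CPM in the MOD libraries and 32.6, 32.7 and 26.1 CPM in the XHT libraries (edgeR adjusted p = 0.209). Without MOD 1, XHT 1 or XHT 3, 0 passed. Without MOD 2, 1 rose and 0 fell, without MOD 3, 7 rose and 7 fell, and without XHT 2, 3 rose and 2 fell.

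Of 12 relatives of the set by protein family, all tested, 1 rose (Lmcd1) and 2 fell, where 12.4% and 16.1% of all tested genes did. The median log2 fold change was 0.57. Fhl3, the family member next to Fhl1 and Fhl2, fell from 36.2 ± 5.78 to 15.6 ± 4.55 CPM, and Csrp2, a smooth muscle and stromal LIM protein, from 136.5 ± 72.8 to 40.3 ± 6.02 CPM (SD, n = 3 each). Their adjusted p-values were 0.0178 and 0.0276 in the edgeR fit. The library values of Fhl3 were 39.2, 39.9 and 29.6 CPM in MOD and 12.3, 13.6 and 20.8 CPM in XHT. The remaining family members tested, Fhl4 and Fhl5, had few counts and log2 fold changes of -1.18 ± 0.57 and 1.04 ± 0.60 that did not pass (SE; edgeR adjusted p = 0.152 and 0.217). Without MOD 1, MOD 2 or XHT 1, 0 of these relatives passed. Without XHT 2, 1 rose and 1 fell, without XHT 3, 0 rose and 1 fell, and without MOD 3, 5 rose and 5 fell.

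**Figure D4:**
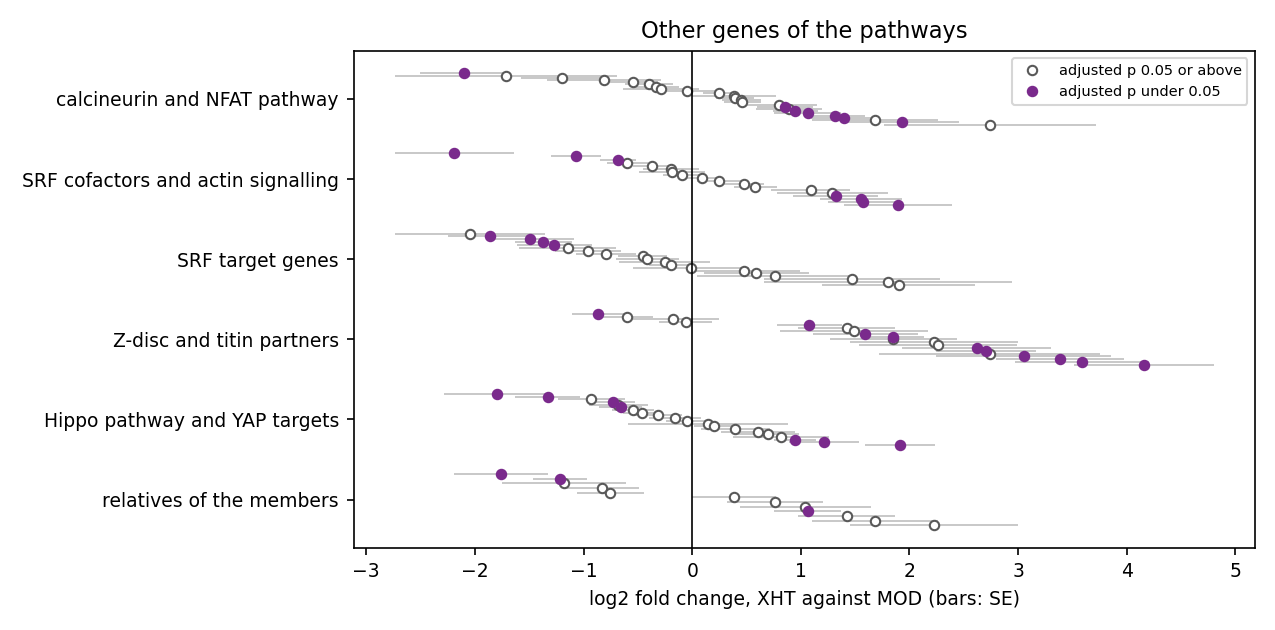
Log2 fold change of XHT against MOD (horizontal axis, bars are SE) for each tested gene of 6 lists, none of them one of the 10 genes described. Filled points passed an adjusted p of 0.05 in edgeR's quasi-likelihood test, 9 to the right in the list of Z-disc and titin partners and 4 to the left among Srf targets.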

How the data were processed

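RNA was sequenced from 3 MOD and 3 XHT libraries. Per the labels' protocols, polyadenylated RNA was selected and libraries had a dUTP second strand and unique molecular identifiers. Per the submitters' processing notes, the tools were featureCounts 1.5.0-p3, HISAT2 2.0.5, DESeq2 1.16.1 and StringTie 1.3.3b. Neither the genome build nor the handling of strand and identifiers is given in the sources used here. The deposited table holds, per the file headers, raw counts and FPKM of each gene, group means (a signal scale), and the authors' log2 fold changes and p-values. Each deposited FPKM is the count over the gene's length, times a factor fixed within a library.

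The counts were fitted in R 4.3.3 with edgeR 4.0.16: filterByExpr (minimum count 10, minimum total 15), TMM, a robust quasi-likelihood fit without covariates, and Benjamini-Hochberg adjustment over 14488 genes at 0.05. Log2 CPM used a prior count of 2. The fit was tested on simulated data. Total counts ran from 16550007 to 17724689, and a count of 0 allows up to 3 counts, or 0.148 to 0.204 CPM, for counting error only. Every pair of libraries differed by far more than sampling noise (chi-square over its degrees of freedom of at least 43.6).

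The 10 genes, the 6 pathway lists and the 7 marker lists were chosen with earlier results of these data known. The text names all 10 genes, up to 4 genes per list and direction by lowest p, 11 tested genes of interest regardless of their p, and the 3 genes nearest to Abra, Ankrd1 and Rcan1 with a mean log2 CPM of at least 1. A symbol with several identifiers was taken at the one with most counts. Ttn was not analysed here. A gene named by this rule among the Srf cofactors is not reported here. Ankrd23, Csrp3, Lmcd1, Rcan2 and Rcan3 are each on 2 of the pathway lists. The alternatives were DESeq2 size factors, library totals, no filter, a replicate block, DESeq2 1.42.0, no mitochondrial genes and each library left out. The legacy quasi-likelihood fit, and for values relative to cardiomyocyte markers the marker median and left-out libraries, were chosen after seeing the data. Promoters were read from RefSeq tables of GRCr8, 250 bases before to 50 after each start.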

Additional observations from a re-analysis of the deposited data

How the results depend on the processing

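Over the 13 alternative fits, the direction of 9 of the 10 genes held, and Srf turned to -0.079 with library totals only, a scaling that moved the median of all tested genes (log2) from -0.02 to -0.42. Without a left-out library, the number of the 10 that passed as higher ran from 5 with library totals to 9 with DESeq2, and it ran from 0 to 8 with libraries left out. Over all genes, 925 rose and 4320 fell with library totals, and 2718 rose with DESeq2; leaving out libraries gave 4 to 3487 higher and 4 to 3421 lower. In the calcineurin list, 3 rose and 5 fell with library totals, 10 rose and 2 fell with DESeq2, and 2 fell without mitochondrial genes (left-out libraries: 0 to 10 higher, 0 to 3 lower). Among Srf cofactors, 7 rose with DESeq2 and 5 fell with library totals (0 to 6 and 0 to 4). Among Srf targets, 1 rose and 7 fell with DESeq2 and 9 fell with library totals (0 to 3 and 0 to 8). Among Z-disc partners, 15 rose with DESeq2 and 2 fell with library totals (0 to 15 and 0 to 2). In the Hippo list, 1 rose and 8 fell with library totals (0 to 7 and 0 to 7). Among relatives, 0 rose and 4 fell with library totals, 4 rose with DESeq2, and 2 rose with DESeq2 size factors or without mitochondrial genes (0 to 5 and 0 to 5). Ppp3cb (-0.15) and Ppp3r1 (-0.012) reversed with library totals, and Ppp3ca ran from -0.23 to 0.25 with libraries left out, above 0 without MOD 3, XHT 1 or XHT 2. Relative to cardiomyocyte markers, 1 gene lay above with the marker mean or median, and 4 lay below with the mean against 2 with the median. With libraries left out the counts were 1 above and 4 to 6 below, but leaving out a library cannot lower them. The cause of these changes was not tested.

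The replicate numbers share only a number: deviations of same-numbered libraries correlated at -0.07, 0.25 and 0.12. With the replicate number as a block, 7 of the 10 genes passed, 10 calcineurin genes rose and 2 fell, 1 Srf target rose, and 4 relatives rose. A limma test of the FPKM was not run, because counts were deposited. The depth limits Ankrd2, with 9 counts in MOD.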
